A study of Mus musculus with 11 samples.

Results

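The p53 pathway was followed through 10 genes in the RNA of sorted splenic B cells of the mouse. They are Trp53, which encodes p53 itself, its inhibitors Mdm2 and Mdm4, the p53 target genes Ccng1, Trp53inp1, Phlda3, Zmat3 and Sesn1, and the kinases Atm and Chek1 that signal DNA damage to p53. The genes were chosen by name as a pathway, with earlier results of these data known. They were found by the Ensembl identifier of the mouse symbol, and all 10 are among the 48795 genes of the deposited table. Of the 10, 9 had a mean of 1 TPM or more (TPM, transcript abundance scaled by length and library) and were tested, and Phlda3 did not.

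p53 is a transcription factor that is held low by MDM2, a ubiquitin ligase, and by its relative MDM4. DNA damage activates the kinases ATM, at double-strand breaks, and ATR, at stalled replication forks. ATR acts through CHK1, the product of Chek1. Both arms lead to p53, whose targets arrest the cell cycle, repair DNA or induce death. Germinal center (GC) B cells divide fast and mutate their immunoglobulin genes, and their transcription factor BCL6 is known to repress Trp53 and Atr.

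The study asked what the interaction of MYC with its partner MIZ1 does in GC B cells, and compared 3 groups. Light zone (LZ) GC B cells (B220+ CD138neg IgDneg CD38neg Fas+ CD86High CXCR4Low) were sorted from 4 Myc WT mice (mice 1 to 4) and 4 Myc V394D mice (Myc VD, mice 5 to 8), and memory B cells (MBCs; B220+ CD138neg IgDneg CD38+ CD273+) from Myc WT mice 1, 3 and 4, the same animals that gave LZ B cells. All mice were females of 8 to 12 weeks, and their spleens were taken on day 10 after immunization with sheep red blood cells. The V394D allele lies at the endogenous Myc locus in all cells of the mouse and keeps MYC from binding MIZ1 but not MAX. The titles of Myc WT mice 1 to 3 share 1 prefix, that of mouse 4 has another and those of all Myc VD mice a further prefix, so genotype and whatever the prefix marks cannot be told apart. Myc was at 32.56, 35.48, 45.16 and 30.7 TPM in LZ Myc WT and at 66.79, 48.21, 24.94 and 44.29 TPM in LZ Myc VD, and TPM do not separate the alleles. Zbtb17, which encodes MIZ1, was at 2.22 to 4.78 TPM and at 0.7 to 5.6 TPM.

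Each library is 1 mouse, and TPM hold no read number, so the only error known is the spread between mice. Some properties of whole libraries moved with the groups. Ribosomal RNA took 35.7 to 44.5% of TPM in LZ Myc WT, 44.1 to 61.3% in LZ Myc VD and 36.1 to 37.5% in MBCs. Of 6668 genes averaging 10 TPM or more in LZ B cells, 34 to 51 were listed at 0 in a LZ Myc WT library, 42 to 69 in a LZ Myc VD library, and 253, 421 and 57 in MBCs of mice 1, 3 and 4. A gene listed at 0 may thus be a failed estimate. All 5 B cell markers were present in every group, with sums of 2905 to 3545 TPM in LZ Myc WT, 2125 to 3225 TPM in LZ Myc VD and 4914 to 6000 TPM in MBCs. The 6 MBC markers, which include the sort markers Cd38 and Pdcd1lg2 (CD273), summed to 32.5 to 36.0 TPM in LZ Myc WT, 17.4 to 34.7 TPM in LZ Myc VD and 506 to 816 TPM in MBCs, and 7 markers of LZ B cells to 744 to 959, 531 to 810 and 257 to 345 TPM. Sums of genes of other cells differed widely between the MBC libraries. The sum of 5 erythroid genes was 6.13, 6241 and 37.7 TPM in mice 1, 3 and 4, that of 6 T cell genes was 0.8, 0.19 and 29.0 TPM, and that of 6 myeloid genes was 36.4, 58.7 and 178 TPM, with S100a8 and S100a9 at 0 in all MBC libraries. In LZ Myc WT these sums were 42.9 to 122, 1.88 to 4.59 and 7.69 to 18.7 TPM. Results in MBCs are therefore also given without single libraries.

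The members spanned a wide range of levels in LZ Myc WT B cells. TPM are scaled by transcript length, so levels can be compared between genes. Mdm4 was the highest, at 264 ± 39.6 TPM (SD, n = 4), above 97.5% of the 12876 genes averaging 1 TPM or more in these cells. Trp53 followed at 124 ± 32.1 TPM and Mdm2 at 99.5 ± 4.77 TPM, and the ranges of these last genes overlapped. Then came Ccng1 (52.9 ± 9.29 TPM), Atm (46.8 ± 12.4 TPM), Chek1 (38.5 ± 8.11 TPM) and Trp53inp1 (33.1 ± 3.01 TPM), each with a range that overlapped that of the next. Sesn1 (15.9 ± 1.97 TPM) and Zmat3 (7.29 ± 0.907 TPM) lay below these with no overlap. The order of the first 3 genes was the same in LZ Myc VD and in MBCs. Chek1 was sixth in both LZ groups and ninth of 10 in MBCs, where Trp53inp1, Sesn1 and Zmat3 stood above it.

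**Figure D1:**
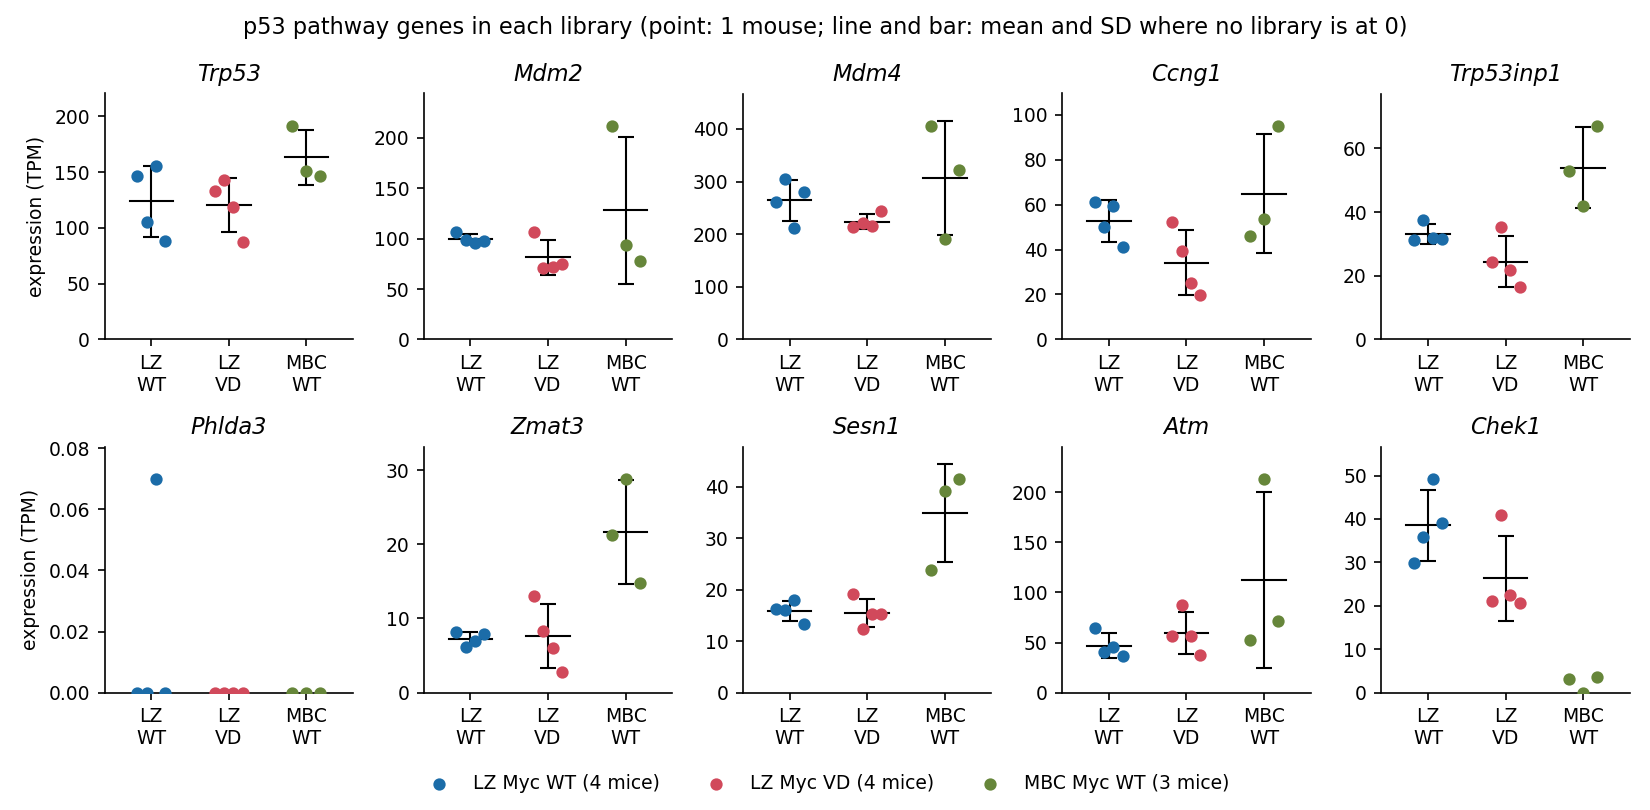
TPM of the 10 members in each library, by group, with a linear axis from 0 for each gene. Each point is 1 mouse, the lines and bars give the mean and SD where no library is listed at 0, and the MBC points of Chek1 lie at or below 3.56 TPM while every LZ point is above 20 TPM.

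Trp53 was at 146.16, 105.09, 155.11 and 88.29 TPM in LZ Myc WT, at 133.05, 142.64, 118.55 and 86.99 TPM in LZ Myc VD, and at 191.65, 151.3 and 146.69 TPM in MBCs. Both LZ groups covered the same range, and only the MBC library of mouse 1 was above every LZ library. The gene lies on chromosome 11 (69580359 to 69591873, plus strand, GRCm38). A processed pseudogene, Trp53-ps, shares a stretch of at least 200 bases at 95% identity or more, and it was listed at 0 TPM in all libraries.

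Mdm2 (chromosome 10, 117688875 to 117710758, minus strand) varied least in LZ Myc WT, with 106.42, 98.35, 95.71 and 97.34 TPM, a coefficient of variation of 4.80%. In LZ Myc VD it was at 106.99, 71.15, 72.05 and 74.98 TPM, so that mouse 5 lay just above the Myc WT range and the other 3 mice below it. The MBC libraries held 212.2, 93.82 and 78.22 TPM, with mouse 1 far above and the other 2 below all LZ Myc WT libraries. Mdm4 (chromosome 1, 132959484 to 133030561, minus strand) was at 260.92, 304.86, 211.15 and 279.55 TPM in LZ Myc WT and at 213.26, 220.57, 216.37 and 244.53 TPM in LZ Myc VD. It was at 406.25, 190.99 and 322.09 TPM in MBCs, where the libraries lay on both sides of the LZ range. The ratio of Mdm4 to Mdm2 was 2.21 to 3.10 in LZ Myc WT, 1.99 to 3.26 in LZ Myc VD and 1.91 to 4.12 in MBCs, and that of Mdm2 to Trp53 was 0.617 to 1.10, 0.499 to 0.862 and 0.533 to 1.11, with overlap between all groups.

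Among the p53 targets, Ccng1 (cyclin G1, chromosome 11, 40748552 to 40755311) was at 60.98, 50.08, 59.48 and 40.96 TPM in LZ Myc WT and at 52.26, 39.57, 25.06 and 19.97 TPM in LZ Myc VD, where 3 of the 4 mice were below every Myc WT mouse. MBCs held 45.92, 53.61 and 95.21 TPM, with mouse 4 alone above the LZ range. Trp53inp1 (chromosome 4, 11156431 to 11174379), which encodes a stress protein that promotes p53 activity and autophagy, was at 31.36, 37.61, 32 and 31.48 TPM in LZ Myc WT and at 24.2, 35.35, 21.72 and 16.46 TPM in LZ Myc VD. In MBCs it was at 52.81, 41.96 and 67.18 TPM, above all LZ libraries.

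Zmat3 (chromosome 3, 32334792 to 32366014), an RNA-binding zinc finger protein, was at 8.18, 6.18, 6.93 and 7.85 TPM in LZ Myc WT. It was at 13.08, 8.34, 6.08 and 2.8 TPM in LZ Myc VD, a spread of 4.67 times between the highest and the lowest mouse. The MBC libraries held 21.29, 28.82 and 14.81 TPM, all above the LZ libraries. Sesn1 (sestrin 1, an inhibitor of mTORC1, chromosome 10, 41809935 to 41908424) was at 16.3, 16.02, 18.05 and 13.29 TPM in LZ Myc WT, at 19.1, 12.31, 15.32 and 15.25 TPM in LZ Myc VD and at 23.89, 39.22 and 41.55 TPM in MBCs. Here too the MBC libraries lay above all others. Phlda3 (chromosome 1, 135766119 to 135769136), an inhibitor of AKT, was listed at 0 TPM in 10 of the 11 libraries and at 0.07 TPM in LZ Myc WT mouse 3.

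The promoters of these genes were read for the 10-base p53 recognition element, which p53 binds as a tandem pair, since Mdm2 and 5 other members are known p53 targets. RefSeq windows of GRCm38.p6, from 250 bases before to 50 after a transcript start, were read for 8 of the 10 members (10 windows), and those of Trp53inp1 and Zmat3 were not analysed here. The element, with its degenerate positions, was found in 4 of the 10 windows and in 8.36% of 32851 windows of all genes. These 4 windows are printed 5′ to 3′ with the matches in capitals. The window of Trp53 also holds the canonical E-box CACGTG, the site of MYC with MAX, from base 11 of the transcript, and 7.15% of all windows hold it. The window of Trp53 is chr11:69580109-69580408 (plus strand), that of Mdm2 chr10:117710709-117711008 (minus), that of Ccng1 chr11:40755237-40755536 (minus) and the one of Sesn1 with a match, of 2, is chr10:41887189-41887488 (plus).
Trp53: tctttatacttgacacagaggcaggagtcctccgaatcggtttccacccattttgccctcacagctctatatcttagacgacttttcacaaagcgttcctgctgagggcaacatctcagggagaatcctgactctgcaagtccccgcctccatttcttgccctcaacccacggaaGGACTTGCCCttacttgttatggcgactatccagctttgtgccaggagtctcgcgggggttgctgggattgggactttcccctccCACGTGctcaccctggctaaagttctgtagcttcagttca
Mdm2: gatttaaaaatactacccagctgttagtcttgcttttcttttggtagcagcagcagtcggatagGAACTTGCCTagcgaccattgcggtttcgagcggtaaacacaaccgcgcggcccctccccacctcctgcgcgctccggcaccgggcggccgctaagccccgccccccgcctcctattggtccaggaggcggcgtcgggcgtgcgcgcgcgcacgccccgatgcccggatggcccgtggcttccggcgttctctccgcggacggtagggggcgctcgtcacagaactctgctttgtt
Ccng1: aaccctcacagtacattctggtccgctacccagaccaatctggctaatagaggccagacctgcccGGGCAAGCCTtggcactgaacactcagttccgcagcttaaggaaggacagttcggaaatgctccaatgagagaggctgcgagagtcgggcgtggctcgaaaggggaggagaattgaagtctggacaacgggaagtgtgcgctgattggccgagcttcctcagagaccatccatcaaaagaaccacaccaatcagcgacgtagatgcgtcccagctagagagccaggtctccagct
Sesn1: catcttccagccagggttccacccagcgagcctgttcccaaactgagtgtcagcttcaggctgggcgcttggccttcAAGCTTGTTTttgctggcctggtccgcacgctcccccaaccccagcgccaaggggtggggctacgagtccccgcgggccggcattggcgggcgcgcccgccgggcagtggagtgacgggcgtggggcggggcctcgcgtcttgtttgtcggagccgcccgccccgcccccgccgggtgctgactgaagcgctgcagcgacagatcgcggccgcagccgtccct
The matches began 75 bases before the start in Trp53, 186 in Mdm2, 185 in Ccng1 and 173 in Sesn1. A match is a description of the letters, and binding was not measured.

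Of the kinases, Atm (chromosome 9, 53439149 to 53536740, minus strand) was at 64.69, 41.01, 45.31 and 36.36 TPM in LZ Myc WT and at 56.45, 87.72, 56.65 and 37.32 TPM in LZ Myc VD. The MBC libraries held 52.65, 213.29 and 71.2 TPM, and mouse 3 stood apart by a wide margin. Chek1 (chromosome 9, 36708482 to 36727065, minus strand) was at 29.85, 35.9, 49.25 and 39.02 TPM in LZ Myc WT and at 21.02, 40.97, 22.57 and 20.75 TPM in LZ Myc VD, where mouse 6 lay within the Myc WT range and the other 3 mice below it. In MBCs it was at 3.15, 0 and 3.56 TPM, and it is the member with the widest gap between groups.

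The Chek1 promoter is shown because this gene carried the clearest difference. Its window (chr9:36726609-36726908, minus strand, GRCm38.p6) holds none of the fixed motifs, which were the E2F letters TTTCCCGC and TTTGGCGC (in 1.56% of all windows), the CHR letters TTTGAA (17.9%), CACGTG and the p53 element, each on both strands. No other member window holds the E2F or CHR letters. Another E2F core, GGCGGGAA, was chosen after this sequence was read. It occupies the last 8 bases of the window, from base 43 of the transcript, is in 2.19% of all windows and in no other window of the members. It is in capitals here.
Chek1: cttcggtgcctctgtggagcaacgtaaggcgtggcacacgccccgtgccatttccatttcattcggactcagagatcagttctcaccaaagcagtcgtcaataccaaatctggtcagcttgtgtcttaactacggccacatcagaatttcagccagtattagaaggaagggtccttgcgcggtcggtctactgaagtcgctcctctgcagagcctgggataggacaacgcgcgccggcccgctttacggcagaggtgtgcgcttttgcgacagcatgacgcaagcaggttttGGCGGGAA

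The first comparison asked whether the members differ between LZ B cells of Myc VD and Myc WT. No member passed the threshold, and the levels of Trp53, Zmat3 and Sesn1 were close to equal in mean. With the deposited TPM, Ccng1 had the largest log2 difference, with a mean of 34.2 ± 14.6 TPM (SD, n = 4) in Myc VD against 52.9 ± 9.29 TPM, followed by Chek1 with 26.3 ± 9.79 TPM against 38.5 ± 8.11 TPM, both lower in Myc VD. Atm had a higher mean, 59.5 ± 20.9 TPM against 46.8 ± 12.4 TPM.

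The test was limma on log2(TPM + 1), two-sided, with Benjamini-Hochberg adjustment over the 12869 genes tested, and are given as Myc VD minus Myc WT. That of Ccng1 was -0.69 (95% interval -1.36 to -0.03, adjusted p = 0.278), that of Chek1 -0.57 (-1.18 to 0.04, adjusted p = 0.327) and that of Trp53inp1 -0.47 (-1.04 to 0.10, adjusted p = 0.383). Mdm2 was at -0.31 (adjusted p = 0.458), Mdm4 at -0.23 (adjusted p = 0.546), Zmat3 at -0.10, Sesn1 at -0.04 and Trp53 at -0.03, the last 3 with adjusted p from 0.923 to 0.968. Atm was at 0.31 (-0.31 to 0.93, adjusted p = 0.600), and at 0.10 without Myc VD mouse 6 and 0.51 without mouse 8. The intervals are wide, and that of Trp53, from -0.56 to 0.51, holds changes of either sign. Exact permutation over the 70 regroupings of the mice gave p from 0.114 to 0.914 for these 9 genes, where the smallest possible is 0.0286.

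Of the 9 members, 0 were called higher or lower at an adjusted p under 0.05, against 0.00777% of all genes tested called higher and 0.0389% called lower. Without adjustment 0 were higher and 1, Ccng1, was lower, against 1.24% and 15.7% of all genes. That count was 1 higher and 0 lower under the median ratio, quantile normalization and removal of ribosomal RNA, and 0 and 3 without Myc VD mouse 6. The shares of all genes without adjustment were counted only with the deposited TPM of all libraries. The groups overlapped in all 9, while 0.816% of all genes were higher and 9.16% lower in Myc VD with no overlap. The shares at an adjusted p under 0.05 are of few calls, 1 higher and 5 lower gene in all. These became 4 and 5 with quantile normalization and 12 and 242 without Myc VD mouse 5. Leaving out that mouse or any other called no member.

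**Figure D2:**
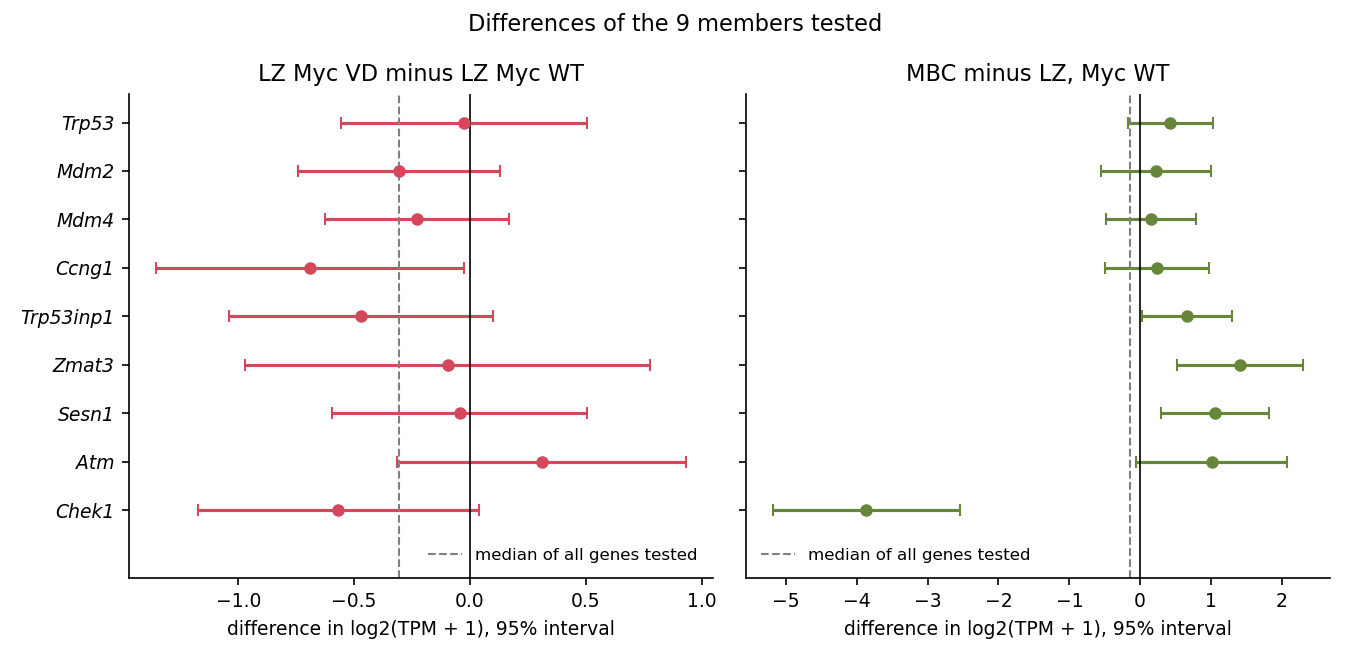
Difference in log2(TPM + 1) of each tested member between LZ Myc VD and LZ Myc WT (left) and between MBCs and LZ B cells of Myc WT (right), with 95% intervals from limma and a dashed line at the median of all genes tested. On the left all intervals but that of Ccng1 include 0, and on the right the interval of Chek1 lies far below 0 and those of Trp53inp1, Zmat3 and Sesn1 above it.

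The direction of most of these differences depended on the scaling of the TPM. The median difference of all genes tested was -0.31 and that of the members -0.23, with 1 of 9 higher and 8 lower. Relative to the all-gene median, Atm lay 0.62 above, Trp53 0.28, Sesn1 0.26 and Zmat3 0.21 above, while Ccng1 lay 0.38, Chek1 0.26 and Trp53inp1 0.16 below. When ribosomal RNA was removed, the all-gene median moved to -0.05 and 6 members were higher and 3 lower. Rescaling by the median ratio gave the same split with an all-gene median of -0.01, and quantile normalization gave 5 and 4. On the log2 scale Trp53, Mdm4, Zmat3 and Sesn1 turned from lower to higher under all 3 of these scalings, and Mdm2 under 2 of them. The mean TPM of Zmat3 was already higher in Myc VD as deposited, 7.58 against 7.29 TPM. Ccng1, Trp53inp1 and Chek1 stayed lower and Atm stayed higher under each of these scalings. The first 3 then differed less, by -0.36, -0.14 and -0.23 under the median ratio. Atm then had the largest difference, 0.62, 0.65 and 0.55 with ribosomal RNA removed, the median ratio and quantile normalization. The share of ribosomal RNA, given above, was higher in Myc VD in 3 of 4 mice than in every Myc WT mouse, and its part in these differences was read only through the removal.

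**Figure D3:**
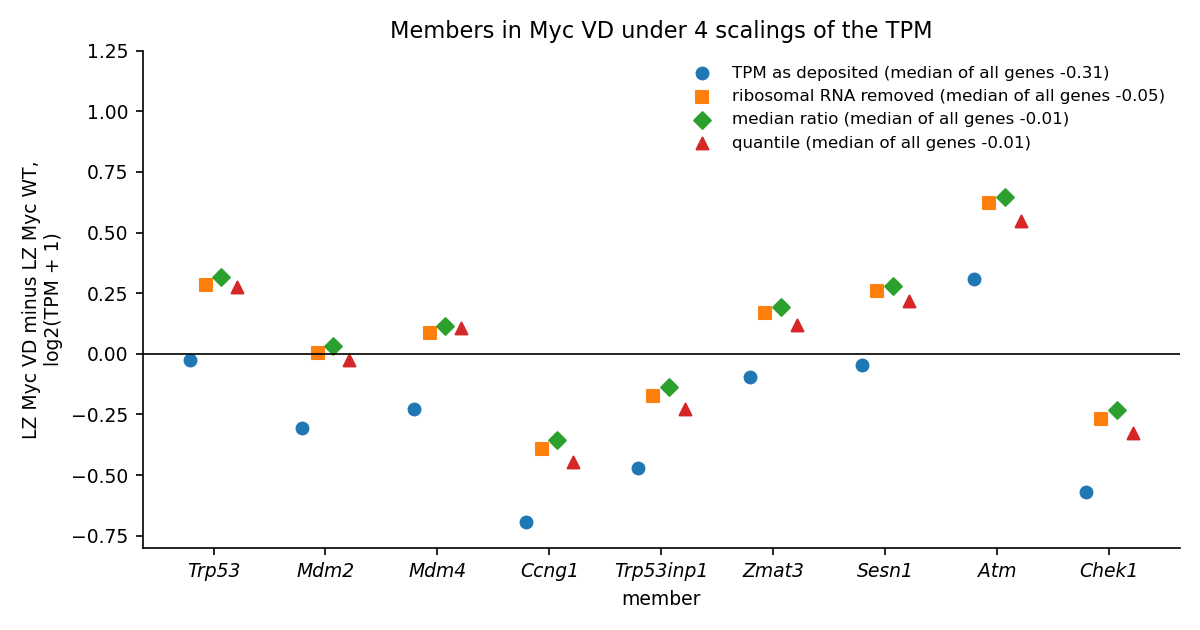
Difference in log2(TPM + 1) between LZ Myc VD and LZ Myc WT for each tested member with the deposited TPM and under 3 other scalings, marked by symbol, with the all-gene median of each in the legend. The points of Ccng1, Trp53inp1 and Chek1 lie below 0 and those of Atm above 0 under all 4, while those of Trp53, Mdm4, Zmat3 and Sesn1 lie on both sides.

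Other genes of the pathway were examined as lists, and no gene of any of them was called in Myc VD. Of 34 further p53 targets 27 were tested, with 4 higher, 23 lower and a median of -0.58 against -0.31 for all genes. Without adjustment 5 of the 27 were lower, a share close to the 15.7% of all genes. That count was 4 without Myc WT mouse 2 and 8 without Myc VD mouse 5. The targets with the smallest p were Bax, which promotes cell death at mitochondria, Apaf1, the scaffold of the apoptosome, and Sfn, a cell cycle inhibitor. Bax was at 54.01, 42.42, 57.41 and 34.92 TPM in Myc WT and at 22.03, 22.91, 17.4 and 24.58 TPM in Myc VD, with no overlap (log2 difference -1.07, adjusted p = 0.108). Apaf1 was at 25.9 ± 6.62 against 12.0 ± 3.48 TPM (SD, n = 4 each) and Sfn at 5.01 ± 1.69 against 1.26 ± 1.44 TPM, with no overlap in either (adjusted p = 0.130 and 0.153 from limma). For Sfn the groups nearly met, at 3.39 TPM in Myc VD mouse 8 and 3.42 TPM in Myc WT mouse 1. Overlap here and in the lists below was read with the deposited TPM only. There 0.816% of all genes were higher and 9.16% lower in Myc VD with no overlap. Whether the groups stay apart after rescaling was not tested. Under the median ratio the list still had 19 of 27 genes lower, with a median of -0.29 and 3 lower without adjustment. The share of all genes was not counted at that scaling.

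The 15 genes of the ATR-CHK1 arm had a median of -0.36 with 1 higher and 14 lower, which became 7 and 8 under the median ratio. Without adjustment 2 of the 15 were lower, below the 15.7% of all genes. That count was 5 without Myc VD mouse 5. Without Myc VD mouse 8 it was 1 and the median of the list was -0.18. Rad1, a subunit of the clamp that activates ATR, was at 7.54, 16.18, 14.25 and 10.5 TPM in Myc WT and 3.22, 2.31, 7.12 and 1.18 TPM in Myc VD (adjusted p = 0.125 from limma). Tipin, of the fork protection complex, was at 108 ± 21.6 against 65.8 ± 40.5 TPM with overlapping groups. Of the 12 genes of the ATM arm, 4 were higher and 8 lower (median -0.18), turned to 8 and 4 by the median ratio. With the deposited TPM 0 had an unadjusted p under 0.05 as higher and 3 as lower, against 1.24% and 15.7% of all genes. Under the median ratio these counts were 2 and 1, and the shares of all genes were not counted there. Without Myc VD mouse 7 they were 0 and 1. Without Myc VD mouse 6 the median of the list was -0.08, with 6 higher and 6 lower. Chek2, the effector kinase of ATM, was among the 3 lower with the deposited TPM, at 16.15, 17.97, 15.91 and 16.61 TPM against 7.78, 2.79, 5.92 and 9.85 TPM in Myc VD (log2 difference -1.32, adjusted p = 0.125). The others were Mdc1, at 29.6 ± 3.55 against 19.9 ± 3.79 TPM with no overlap, and Rnf8, at 18.2 ± 5.09 against 10.8 ± 3.16 TPM, which act together at damaged chromatin.

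Of 15 p53 regulators tested, 2 were higher and 13 lower, with a median of -0.32, and 2 of the 15 had an unadjusted p under 0.05, both lower, which is below the 15.7% of all genes. Under the median ratio 8 were higher and 7 lower, with 3 higher and 0 lower at that p, and the shares of all genes were not counted there. With the deposited TPM the count of 2 lower became 0 without Myc WT mouse 3 and 3 without Myc VD mouse 5. Aurka, a mitotic kinase that phosphorylates p53, was at 23.3 ± 7.47 against 12.8 ± 2.48 TPM with no overlap, and Rpl5, a ribosomal protein that binds MDM2, at 434 ± 151 against 268 ± 68.6 TPM. Hipk2, a kinase that phosphorylates p53 and that was picked here after its values were seen, was at 17.2 ± 0.671 against 22.9 ± 1.72 TPM, higher in Myc VD with no overlap (log2 difference 0.39, adjusted p = 0.392 from limma). Proliferation genes were lower in 19 of 20, with a median of -0.58, and 8 had an unadjusted p under 0.05, all lower, against 15.7% of all genes. With 1 library left out that count ranged from 1 without Myc WT mouse 3 to 14 without Myc WT mouse 4. Under the median ratio 5 were higher and 15 lower with a median of -0.23, and at that p 1 was higher and 0 lower. These counts were 0 and 0 with ribosomal RNA removed and 1 and 2 with quantile normalization. Of the 8 lower with the deposited TPM, Ccne2 was at 22.3 ± 6.50 against 11.3 ± 3.44 TPM, Pcna at 336 ± 52.6 against 222 ± 76.1 TPM and Tyms at 103 ± 18.3 against 68.5 ± 12.5 TPM (adjusted p = 0.199, 0.223 and 0.228 from limma). The sum of the 5 erythroid genes was 44.3 to 322 TPM in LZ Myc VD and 42.9 to 122 TPM in LZ Myc WT. That of 5 plasma cell genes was 134 to 221 TPM in LZ Myc VD and 229 to 381 TPM in LZ Myc WT, with no overlap in the deposited TPM. The part of these sums in the values above was not tested.

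The second comparison asked how the members differ between MBCs and LZ B cells of Myc WT mice. Chek1 was lower in MBCs and was the only member called, with 3.15, 0 and 3.56 TPM against 29.85 to 49.25 TPM. Zmat3 (21.6 ± 7.01 against 7.29 ± 0.907 TPM), Sesn1 (34.9 ± 9.59 against 15.9 ± 1.97 TPM) and Trp53inp1 (54.0 ± 12.7 against 33.1 ± 3.01 TPM; SD, n = 3 and 4) had higher levels in every MBC library than in any LZ library, without passing the threshold. Trp53, Mdm2, Mdm4, Ccng1 and Atm overlapped between the cell types. In sorted bulk RNA, fewer cells of a type and less RNA per cell cannot be told apart.

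By limma, the difference of Chek1 in log2(TPM + 1), as MBC minus LZ, was -3.87 (95% interval -5.18 to -2.55, adjusted p = 0.00669 over 13245 genes). It stayed below an adjusted p of 0.05 under all 16 alternatives, between -5.16 with a pseudocount of 0.1 and -3.16 without the MBC library of mouse 3, in which it is listed at 0, and its size depends on the pseudocount. With the mouse as replicate block, which uses the 3 animals that gave both cell types, it was -3.89 (adjusted p = 0.0457). Zmat3 differed by 1.41 (0.52 to 2.30, adjusted p = 0.0572), Sesn1 by 1.05 (0.29 to 1.82, adjusted p = 0.0849) and Trp53inp1 by 0.67 (0.032 to 1.302, adjusted p = 0.166). Zmat3 passed without the MBC library of mouse 4 (1.64, adjusted p = 0.0200) and Sesn1 without that of mouse 1 (1.298, adjusted p = 0.0412), while under the replicate block both were far from it (adjusted p = 0.358 and 0.383). For Chek1, Zmat3, Sesn1 and Trp53inp1 the exact permutation test gave p = 0.0286, the smallest that 35 regroupings allow.

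The other members overlapped between the cell types, and for 4 of them the size or sign of the difference changed with single libraries. Atm differed by 1.01 (-0.05 to 2.07, adjusted p = 0.204) and by 0.41 without the MBC library of mouse 3. Trp53 differed by 0.42 (-0.18 to 1.03, adjusted p = 0.342), and by 0.28 to 0.55 with 1 library left out. Mdm2 was at 0.22 and at -0.21 without the MBC library of mouse 1, Mdm4 at 0.16 and at -0.08 without the same library, and Ccng1 at 0.24 and at -0.07 without that of mouse 4. Sesn1, Zmat3 and Trp53inp1 were higher and Chek1 lower in each of the 3 animals when its own MBCs and LZ B cells were set against each other. Within mice 1, 3 and 4 the differences of Zmat3 were 1.28, 1.91 and 0.84, those of Sesn1 0.52, 1.08 and 1.57, those of Trp53inp1 0.73, 0.38 and 1.07, and those of Chek1 -2.89, -5.65 and -3.13. The remaining 5 members had both signs.

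Of the 9 members tested, 0 were called higher and 1 lower at an adjusted p under 0.05, against 4.17% and 5.04% of all genes. Without adjustment 3 were higher and 1 lower (0 and 1 under the replicate block), against 11.3% and 15.8%, and the same 3 and 1 had no overlap between the groups, against 11.8% higher and 14.4% lower among all genes. The median difference of the members was 0.42 and that of all genes -0.14, and 8 of 9 members were above the latter. The all-gene median was -0.28 with ribosomal RNA removed and 0.021 with quantile normalization, and 8 members were higher and 1 lower in MBCs under both. With quantile normalization, though, Mdm2 was at 0, Mdm4 at -0.010 and Ccng1 at 0.022 relative to the all-gene median. The count of all genes called was 552 higher and 667 lower, and 130 and 118 under the replicate block, which left the same number of members called. That count was 410, 342, 375 and 519 without LZ mice 1 to 4 and 2754 without the MBC library of mouse 4, and 2 members were called without that of mouse 1 or 4. Zmat3, Sesn1 and Chek1 kept their direction without each MBC library. The myeloid sum given above was higher in every MBC library than in any LZ Myc WT library, so leaving out 1 does not remove it. The part of the myeloid, T cell and erythroid sums in these differences was not tested.

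Related genes were counted next. The 15 genes of the ATR-CHK1 arm had a median of -1.66 in MBCs, with 3 higher and 12 lower, and 6 were called lower (1 under the replicate block), against 5.04% of all genes. These were Cdc25b, a phosphatase that drives entry into mitosis, Tipin, Wee1, a kinase that restrains CDK1, Timeless, Clspn, the adaptor through which ATR activates CHK1, and Topbp1, an activator of ATR. Tipin was at 102.95, 114.95, 132.7 and 81.26 TPM in LZ Myc WT and at 15.02, 4.9 and 26.8 TPM in MBCs (log2 difference -2.96, adjusted p = 0.0102). Cdc25b was at 33.3 to 43.19 TPM against 1.55, 0.57 and 16.86 TPM (-3.19, adjusted p = 0.0336) and Wee1 at 26.33 to 40.26 TPM against 5.08, 0.72 and 15.9 TPM (-2.61, adjusted p = 0.0492). Topbp1 was close in all MBC libraries, at 47.93, 40.53 and 44.97 TPM against 100.98 to 124.7 TPM (-1.32, adjusted p = 0.0116). Timeless was at 25.0 ± 3.72 against 5.78 ± 4.75 TPM and Clspn at 54.5 ± 13.0 against 17.5 ± 8.96 TPM (adjusted p = 0.0393 and 0.0315 from limma).

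Proliferation genes were lower in MBCs in 20 of 20, with a median of -2.13. Of these 15 were called, against 5.04% of all genes called lower. Under the replicate block 7 were called, against 118 of 13151 genes called lower. The largest differences among those called were those of Tyms, thymidylate synthase, at 75.55 to 114.06 TPM against 0.11, 0 and 16.06 TPM (-5.26), of Birc5, at 118.41 to 209.44 against 1.91, 5.3 and 54.22 TPM (-3.89), and of Cdk1, at 71.78 to 128.0 against 4.49, 1.65 and 45.65 TPM (-3.47). Of the called genes, Rrm2, Mcm5 and Rrm1 followed at -2.97, -2.74 and -2.62. The sum of the 20 genes was 1986 to 3590 TPM in LZ Myc WT, 1584 to 2870 TPM in LZ Myc VD and 525 to 888 TPM in MBCs. Chek1 made up 0.988 to 1.96% of that sum in LZ Myc WT, 0.733 to 1.68% in LZ Myc VD and 0.600, 0 and 0.401% in MBCs, so its share of the sum was lower in each MBC library than in any LZ library. Among the 20 proliferation genes, Tyms and Birc5 alone differed by as much as Chek1 or more.

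**Figure D4:**
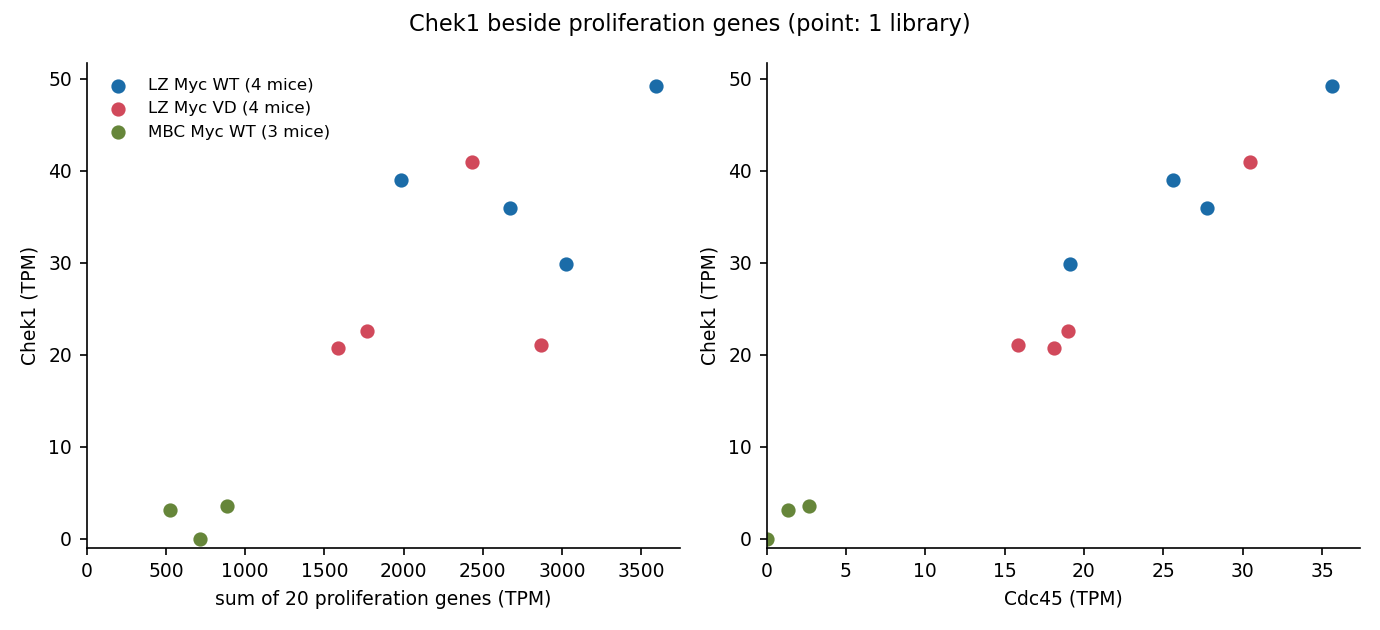
Chek1 TPM against the summed TPM of 20 proliferation genes (left) and against Cdc45 TPM (right), with 1 point per library and colors by group. The MBC libraries lie at the lower left in both panels, at or below 3.56 TPM of Chek1 and 888 TPM of the sum.

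The ATM arm had a median of -0.86 with 4 higher and 8 lower, and 1 gene was called lower, against 5.04% of all genes. This was the histone gene H2afx, whose product ATM phosphorylates at breaks. It was at 708.31, 342.15, 596.69 and 343.9 TPM in LZ Myc WT and at 31.24, 16.1 and 58.65 TPM in MBCs (log2 difference -3.88, adjusted p = 0.00251), and it was called under the replicate block too. The median of the list was -0.22, with 6 higher and 6 lower, without the MBC library of mouse 1, and -0.29 without that of mouse 3. Of the further p53 targets 28 were tested, with 9 higher, 19 lower and a median of -0.64, and 3 were called lower, none of them under the replicate block, against an all-gene median of -0.14 and 5.04% called lower. They were Pidd1, an adaptor of caspase-2, at 23.1 ± 9.14 against 2.72 ± 1.34 TPM (SD, n = 4 and 3), Gadd45a, a stress sensor, at 7.31 ± 0.425 against 1.22 ± 0.528 TPM, and Rrm2b, the p53-inducible subunit of ribonucleotide reductase, at 92.8 ± 26.1 against 35.3 ± 9.24 TPM (adjusted p = 0.0119, 0.0338 and 0.0372 from limma). The list holds Fas, a sort marker of LZ B cells. The median of the list was -0.25 without the MBC library of mouse 3, -0.38 without that of mouse 1 and -1.001 without that of mouse 4. Quantile normalization brought its split to 13 higher and 15 lower with 4 called lower.

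Of 15 p53 regulators tested, 6 were higher and 9 lower, with a median of -0.13, and 2 were called higher and 1 lower (0 and 1 under the replicate block), against 4.17% and 5.04% of all genes. The split turned to 12 higher and 3 lower with a median of 0.64 without the MBC library of mouse 3, and to 8 and 7 with a median of 0.18 under quantile normalization. Ep300 and Crebbp encode the acetyltransferases p300 and CBP, coactivators of p53. Ep300 was at 214.42, 155.37, 172.53 and 143.08 TPM in LZ Myc WT and at 459.04, 398.03 and 273.54 TPM in MBCs (1.12, adjusted p = 0.0275), and Crebbp at 38.88 to 59.0 TPM against 181.8, 104.56 and 103.8 TPM (1.34, adjusted p = 0.0291). Bcl6, which is also among the GC markers, was at 156.14 to 214.83 TPM against 48.67, 23.19 and 53.35 TPM (-2.20, adjusted p = 0.00594). Neither Ep300 nor Crebbp was called without any 1 LZ library or without the MBC library of mouse 1. With 1 library left out, the number called lower in MBCs ranged from 1 to 9 in the ATR-CHK1 arm, from 0 to 7 among the p53 targets and from 5 to 16 among the proliferation genes, the lowest without LZ mouse 2 or 3 and the highest without the MBC library of mouse 4.

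**Figure D5:**
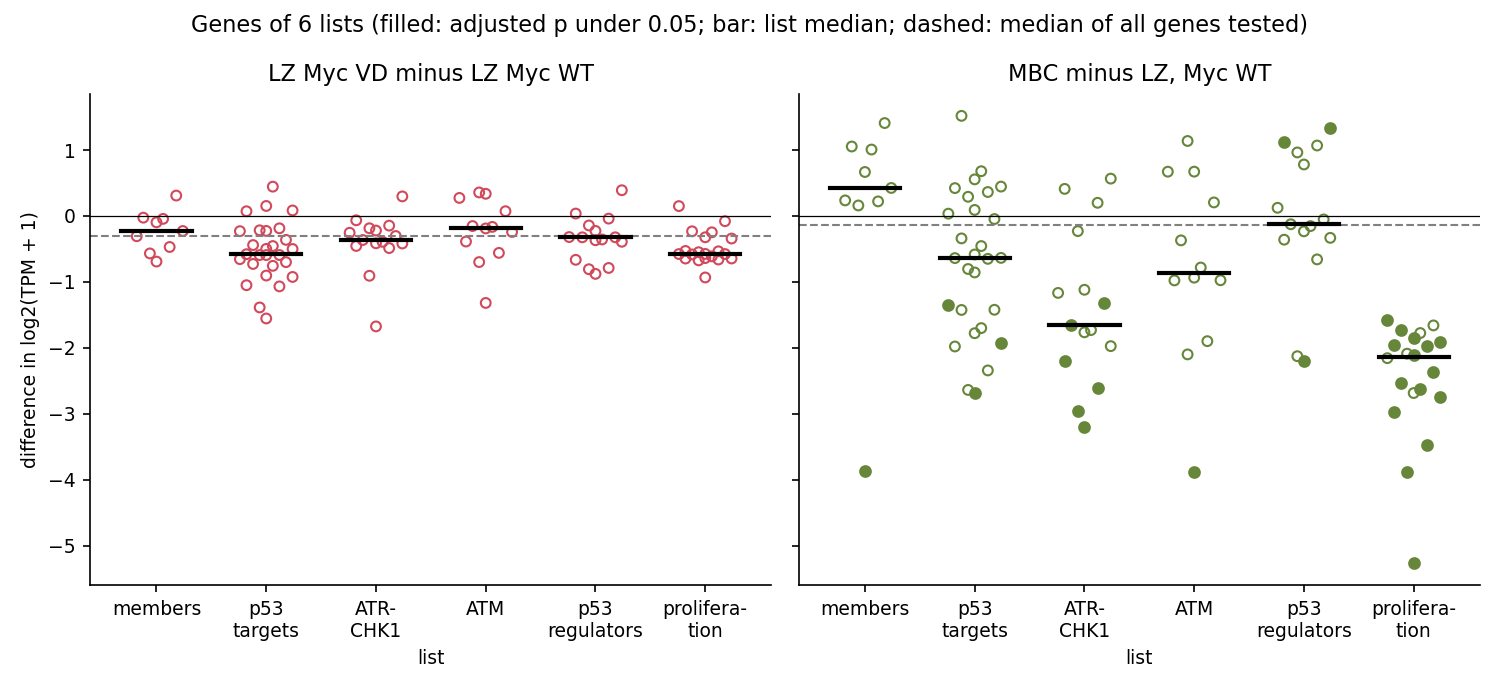
Difference in log2(TPM + 1) of each tested gene in 6 lists between LZ Myc VD and LZ Myc WT (left) and between MBCs and LZ B cells of Myc WT (right). Filled points passed an adjusted p of 0.05, bars are list medians and the dashed line is the median of all genes tested, -0.31 on the left and -0.14 on the right.

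Both comparisons use the same 4 LZ Myc WT libraries, so they are set side by side only gene by gene. Chek1 was at -0.57 in Myc VD and -3.87 in MBCs, Zmat3 at -0.10 and 1.41, Sesn1 at -0.04 and 1.05, Trp53inp1 at -0.47 and 0.67, Ccng1 at -0.69 and 0.24, and Atm at 0.31 and 1.01. Whether any of these pairs differ was not tested.

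The median spread between mice was larger in LZ Myc VD and MBCs than in LZ Myc WT, but not that of every member. The median coefficient of variation of the 9 members was 15.0% in LZ Myc WT, 32.6% in LZ Myc VD and 35.4% in MBCs, and that of all genes averaging 5 TPM or more was 21.7, 38.1 and 60.7%. Trp53 went the other way, with 25.96, 20.2 and 15.2%, as did Mdm4 in LZ Myc VD, with 15.0 and 6.36%. Zmat3 in LZ Myc VD (57.0%) and Atm in MBCs (78.2%) had the widest spread within their groups among members with no library at 0.

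The genes most like Trp53 and Chek1 over the 11 libraries were sought among 9222 genes averaging 5 TPM or more, by Pearson's r of log2(TPM + 1). For Chek1 they were Cdc45 (r = 0.993), a subunit of the replicative helicase, Mef2b (r = 0.984), a transcription factor of GC B cells, and Atad5 (r = 0.981), which unloads PCNA. Cdc45 was at 19.13, 27.77, 35.6 and 25.63 TPM in LZ Myc WT, at 15.84, 30.45, 18.99 and 18.14 TPM in LZ Myc VD and at 1.35, 0 and 2.65 TPM in MBCs, so that Myc VD mouse 6 was again the highest of its group. The MBC libraries lie apart from the others and widen each r. Over the 8 LZ libraries alone r was 0.951 for Cdc45, 0.674 for Mef2b and 0.728 for Atad5. For Trp53 the genes were Celf1 (r = 0.925), an RNA-binding protein, Sart1 (r = 0.913), a splicing factor, and Gatad2b (r = 0.911), a subunit of the NuRD complex, with r of 0.901, 0.926 and 0.873 over the LZ libraries. The points are whole libraries that differ also in ribosomal RNA content, and these values describe 11 points only.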

How the data were processed

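RNA of FACS-purified cells was sequenced as 1 library per mouse and cell type (NuGEN cDNA kit, Illumina HiSeq). The authors aligned reads with STAR 2.5.2a to the Ensembl mouse transcriptome (GRCm38), quantified genes with RSEM 1.3.0 in a stranded mode, and deposited TPM with 2 decimals for 48795 genes. The annotation release is not given in the sources used here, and TPM keep no depth, so precision rests on the spread between mice. DESeq2 1.18.1, named in the submitters' processing notes, needs counts and was not run.

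Symbols and coordinates came from GENCODE M21 (48349 genes matched) and promoters from RefSeq (GRCm38.p6). No member shares exonic bases with another gene in GENCODE M21. Groups were compared with limma 3.58.1 (R 4.3.3, with a trend) on log2(TPM + 1), a scale that understates changes of low genes. Tested were genes averaging 1 TPM or more over the libraries compared, and Benjamini-Hochberg adjustment ran over all of them. The script was tested on simulated data. Exact permutation tests used scipy 1.17.1. Named were the members, in each list up to 6 called genes with the largest difference or, with none called, up to 3 with the smallest unadjusted p under 0.05, the 3 genes most like Trp53 and most like Chek1, and Myc and Zbtb17. Hipk2 was named outside this rule, after its values were seen. The members and lists were chosen with earlier results of these data known.

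By their titles, MBCs and LZ B cells that share a mouse number are from 1 animal. Their deviations from the group means correlated with r = 0.00420, 0.000933 and -0.0337 for mice 1, 3 and 4. The settings varied were the pseudocount (0.1), the filter (none, or an average of 5 TPM), the scaling (median ratio, quantile, 356 ribosomal RNA genes removed), the trend, a fit of all 3 groups, the mouse as replicate block, and each library left out.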

Additional observations from a re-analysis of the deposited data

Results flagged for a closer look

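In 4 of 19 sets of 4 LZ libraries, 1 library stood apart from the other 3 by most of the range of its set (Dixon's test, which chance passes in about 1 of 20 sets). Mdm2 was at 106.99 TPM in Myc VD mouse 5 and at 71.15 to 74.98 TPM in the other Myc VD mice. Chek1 was at 40.97 TPM in Myc VD mouse 6 and at 20.75 to 22.57 TPM in the others. Trp53inp1 was at 37.61 TPM in Myc WT mouse 2 and at 31.36 to 32 TPM in the others. Phlda3 was at 0.07 TPM in Myc WT mouse 3 and at 0 in the others. With 3 libraries at 0 any value above 0 stands apart in this way, so the set of Phlda3 says nothing against that rate.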

How the results depend on the processing

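In the comparison of Myc VD with Myc WT, 0 members were called under every alternative. The count of all genes called, 6, became 0 with all 3 groups in 1 fit, the median ratio, no filter or a pseudocount of 0.1, 15 at an average of 5 TPM or more, 1 without ribosomal RNA, and 0 to 254 with 1 library left out, the most without Myc VD mouse 5. Differences turned from lower to higher with the median ratio, quantile normalization and removal of ribosomal RNA, to 0.32, 0.28 and 0.29 for Trp53, 0.12, 0.11 and 0.084 for Mdm4, 0.19, 0.12 and 0.17 for Zmat3 and 0.28, 0.22 and 0.26 for Sesn1, and for Mdm2 to 0.034 with the median ratio and 0.0020 without ribosomal RNA. With 1 library left out they ranged from -0.17 to 0.12 for Trp53, -0.39 to 0.24 for Zmat3 and -0.14 to 0.054 for Sesn1. Between MBCs and LZ B cells, the count of all genes called, 1219, was 608 without a filter, 248 with the mouse as replicate block and 342 to 2754 with 1 library left out. Chek1 was called in all of these, and 2 members were called at an average of 5 TPM or more and with quantile normalization, and 1 to 2 with 1 library left out. Leaving out 1 library gave -0.21 to 0.50 for Mdm2, -0.077 to 0.47 for Mdm4 and -0.073 to 0.45 for Ccng1. The replicate block changed no call of a member. The cause of these shifts was not tested beyond the fewer libraries or genes in each fit. The other values for single members kept their direction and side of the threshold, except for Zmat3, which passed it at an average of 5 TPM or more, with quantile normalization and without the MBC library of mouse 4, and Sesn1, without that of mouse 1. Depth is unknown, so what it limits cannot be stated.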
